A study of Mus musculus with 24 samples.

Results

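The stefin A cluster genes Stfa1, Stfa2, Stfa3, Stfa2l1 and BC100530 were followed in the dorsal skin of mice with and without alopecia areata (AA), the autoimmune loss of hair. These 5 genes were taken by name from the 39017 genes of the count table, and they had been selected on their measured levels across the 4 groups in these same libraries. Their own values are therefore given below as a description, with no test and no call. Tests are given only for other genes. All mice were female C3H/HeJ, a strain that can develop AA, and were about 30 weeks old at termination. About 50 mg of dorsal skin was taken from each. The healthy mice carried no AA and were untreated. The AA mice had been given the disease by skin grafting and received no JAK inhibitor. The titles of their libraries hold the term Vec12w, whereas the study's text calls the AA mice untreated. The systemic JAK1i group were AA mice that ate the JAK1-selective inhibitor AZ13748709 in their food for 4 weeks, at 100 mg/kg once a day, and gave skin while still alive. The sample labels give this duration, whereas the series' design text gives 12 weeks. The 8w off treatment group were AA mice sampled 8 weeks after the same treatment had ended, at week 12. Skin of the healthy and AA groups was also taken at week 12, and that of the systemic JAK1i group at week 4. Comparisons with systemic JAK1i thus differ in sampling time, age at sampling and the taking of skin from live mice as well as in treatment. These cannot be told apart. By the study's methods the systemic JAK1i and 8w off treatment groups are the same animals at different times. The 8w off treatment mice had thus been biopsied before. The labels do not say which libraries share a mouse. Each group had 6 libraries, lettered A to F, with 3444193 to 11233020 counts per library. The RNA was of low integrity, and the libraries were made without a fragmentation step, by a protocol for total RNA although the labels name poly(A) RNA.

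Stefins are small cytosolic proteins of the cystatin superfamily. They bind papain-like cysteine proteases, among them cathepsins B, H, L and S, reversibly and tightly, and so block proteolysis by enzymes that leak from lysosomes or come from outside the cell. Humans have a single stefin A gene, CSTA, whose product is a precursor of the cornified envelope of keratinocytes and whose loss causes a peeling skin disease. The mouse carries a tandem array of stefin A genes, which are known from epidermis and also from neutrophils.

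In the GRCm38 assembly the 5 genes lie at chr16:36156811-36455392, each with 3 exons. Stfa2l1 is at chr16:36156811-36161953 and Stfa1 at chr16:36276951-36285373, both on the plus strand. BC100530 is at chr16:36359382-36367748, Stfa2 at chr16:36403992-36408457 and Stfa3 at chr16:36450537-36455392, all on the minus strand. The array holds 10 protein-coding stefin genes in all, with 8 pseudogenes among them. The coding sequences of the members are 77.9% to 98.0% identical over aligned bases, and near identity holds for just 2 of the 10 pairs. Stfa1 and BC100530 differ at 6 of their aligned coding bases, and Stfa2 and Stfa2l1 at 11. Stfa3 is 81.1% to 84.7% identical to the other 4. This matters for the values below, because reads that match more than 1 copy can be assigned to either or to neither. The same 76 coding bases, the length of a sequencing read, are shown for the 5 members and for Csta1, a neighbouring stefin A gene described further on. Capitals mark bases unlike BC100530.
Stfa1: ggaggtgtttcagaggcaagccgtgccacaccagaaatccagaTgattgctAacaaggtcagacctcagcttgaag
BC100530: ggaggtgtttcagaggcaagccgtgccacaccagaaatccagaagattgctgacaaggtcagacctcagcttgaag
Stfa2: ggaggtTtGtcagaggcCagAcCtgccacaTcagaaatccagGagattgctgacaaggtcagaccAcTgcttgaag
Stfa2l1: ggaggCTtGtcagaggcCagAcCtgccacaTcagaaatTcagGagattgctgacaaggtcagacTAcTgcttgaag
Stfa3: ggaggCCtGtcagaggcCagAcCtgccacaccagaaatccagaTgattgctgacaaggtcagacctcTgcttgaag
Csta1: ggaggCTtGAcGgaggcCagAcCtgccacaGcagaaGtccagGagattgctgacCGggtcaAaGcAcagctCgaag

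Compared with BC100530, the stretch differs at 2 bases in Stfa1, 8 in Stfa3, 9 in Stfa2, 12 in Stfa2l1 and 17 in Csta1. Of all 76-base stretches of a transcript, 100.0% of those of Stfa3 and Csta1 occurred in no other protein-coding gene of the array. The share was 94.4% for Stfa2, 93.6% for Stfa2l1, 92.0% for Stfa1 and 78.1% for BC100530. Most of each transcript can thus be told from the other protein-coding genes of the array by a perfectly matching read. The pseudogenes and the rest of the genome were not searched. The sum of the 5 genes is given beside the single genes throughout.

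The promoters are also alike. The RefSeq table of promoters on GRCm38.p6 held 4 of the 5 members, and BC100530 had no entry. The 250 bases before the start of Stfa3, at chr16:36455393-36455642 on the minus strand, and of Stfa2l1, at chr16:36156561-36156810 on the plus strand, are shown because neither stretch touches an annotated exon of its gene and because these genes had very different levels. Capitals mark ATTGG, the other strand of the CCAAT box, and TTTAAA.
Stfa3: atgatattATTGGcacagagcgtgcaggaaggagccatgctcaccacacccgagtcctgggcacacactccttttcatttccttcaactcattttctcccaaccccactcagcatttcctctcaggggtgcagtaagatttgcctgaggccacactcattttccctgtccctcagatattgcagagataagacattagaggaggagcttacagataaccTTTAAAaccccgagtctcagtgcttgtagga
Stfa2l1: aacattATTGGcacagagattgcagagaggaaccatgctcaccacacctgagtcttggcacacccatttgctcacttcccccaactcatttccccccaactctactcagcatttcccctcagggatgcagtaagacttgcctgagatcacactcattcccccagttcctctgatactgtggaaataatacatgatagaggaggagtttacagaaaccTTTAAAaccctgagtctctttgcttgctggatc

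These stretches were 80.5% identical over the alignment. CCAAT, searched on both strands, was present in all 4 members with an entry and in 33.85% of 32851 mouse promoters of this length. TTTAAA was present in the same 4 members and in 12.08% of promoters. Both motifs were picked after the sequences had been read. Among other genes of the array with an entry, Csta1 and Gm5416 also held TTTAAA, and 2010005H15Rik held CCAAT. Of the 250 bases searched, 197 in Stfa1 and 94 in Stfa2 lay in annotated exons of the gene. TATAAA (12.37% of promoters), the AP-1 motif TGANTCA (6.749%), the STAT motif TTCNNNGAA (7.02%) and the interferon response element (2.977%) were in 0 of the 4 windows, which says nothing about sites elsewhere.

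The sum of the 5 stefin A genes was low in healthy skin and under the JAK1 inhibitor, and the ranges of these groups overlapped. It was high in AA skin and at an intermediate level 8 weeks after the inhibitor was withdrawn. Levels are given as CPM, counts scaled to a common library size by the trimmed mean of M-values (TMM). The sum of the 5 genes ran from 3.27 to 69.0 CPM in healthy skin with a median of 7.09, and from 76.7 to 579.7 CPM in AA skin with a median of 265.7. It ran from 1.28 to 3.68 CPM with a median of 2.96 under systemic JAK1i, and from 14.4 to 180.2 CPM with a median of 53.5 in the 8w off treatment group. In CPM every AA library was above every healthy library and every systemic JAK1i library. In the deposited TPM, a unit per length that is not scaled between libraries by TMM, the sum was 73.4 in AA library D and 79.1 in healthy library B, so that AA and healthy skin overlapped through these libraries. Every 8w off treatment library was above every systemic JAK1i library. In the order of medians AA, 8w off treatment, healthy and systemic JAK1i, each pair of neighbours overlapped. The overlap of healthy with 8w off treatment came from healthy library B alone. In RNA of whole skin, fewer cells of a type and less RNA per cell cannot be told apart.

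**Figure D1:**
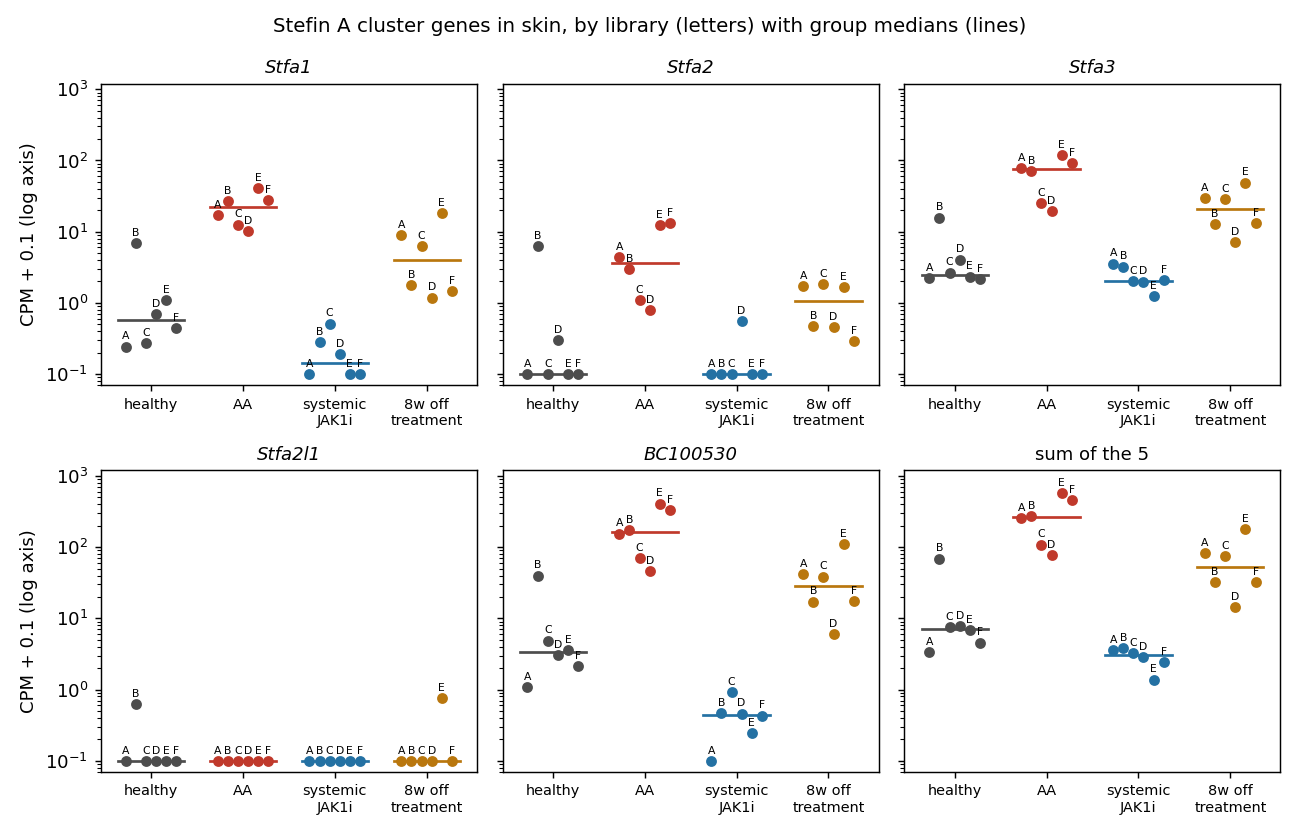
Level of each stefin A gene and of their sum in the 24 libraries, as CPM + 0.1 on a log axis; points are libraries marked by their letter and horizontal lines are group medians. The AA libraries lie between 76.7 and 579.7 CPM for the sum, all above the healthy and systemic JAK1i libraries, and healthy library B lies far above the other 5 healthy libraries.

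Healthy library B stood apart, and some of the values it bears on are also given without it. Every r with the group means taken out includes library B. It had 69.0 CPM for the sum against 7.71 CPM for the next highest healthy library, and was the highest healthy library for each of the 5 genes. Its summed level of 25 listed neutrophil genes was 201.3 CPM, against at most 142.0 CPM in the other healthy libraries, and that of 20 cornified envelope genes was 10806 CPM against at most 6848 CPM. Its summed macrophage, T cell and mast cell markers were the lowest of the healthy group. The part of these differences in tissue make-up in its stefin level was not tested. Without it the mean of the sum in healthy skin was 5.92 ± 1.96 CPM (SD, n = 5), and with it 16.4 ± 25.8 CPM (SD, n = 6).

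The comparison of AA with healthy skin sets grafted mice with the disease beside untreated mice without it. Any effect of the grafting cannot be told apart from that of the disease. The log2 fold change of the sum was 4.15 ± 0.65 (SE), a 17.7-fold higher level, and 5.64 without healthy library B. BC100530, the member with the most counts, ran from 0.995 to 39.9 CPM (median 3.22) in healthy skin and from 46.6 to 408.1 CPM (median 165.7) in AA skin. The log2 fold change was 4.44 ± 0.71, and 6.14 without healthy B. Stfa3 ran from 2.06 to 15.6 CPM (median 2.39) in healthy skin and from 19.3 to 118.4 CPM (median 74.7) in AA skin, which is 3.81 ± 0.54 on the log2 scale, and 4.70 without healthy B. In both genes the lowest AA library was above the highest healthy one in CPM. In TPM AA library D was just below healthy library B for both, at 36.2 against 36.5 TPM for BC100530 and at 19.5 against 21.7 TPM for Stfa3.

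Stfa1, the sequence neighbour of BC100530, ran from 0.142 to 6.85 CPM (median 0.468) in healthy skin and from 10.1 to 40.8 CPM (median 21.8) in AA skin. Its log2 fold change was 3.88 ± 0.74, and 5.72 without healthy B. Stfa2 had 36 counts over the healthy libraries, 35 of them in library B, and 166 counts over the AA libraries with 3 to 57 in each. Stfa2 overlapped between the groups because of library B. Stfa2l1 had 0 counts in the 6 AA libraries together, which allows a level of up to 0.0971 CPM, and 3 counts in healthy skin, all in library B. These limits cover counting error only. In TPM Stfa2l1 was 0.232 in AA library A and 0.202 in AA library F. Stfa2 and Stfa2l1 were too low to pass the filter on low counts, so 3 of the 5 members were in the fit across all genes.

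These 3 did not overlap between the groups in CPM, with AA higher, which was so for 8.17% of the 16248 genes in the fit. Nothing is read from this or the like shares below, since the genes were chosen for their levels in these groups. Libraries of the AA group differed widely. In CPM libraries E and F were highest for BC100530, Stfa3, Stfa2 and Stfa1, and libraries C and D were lowest for all 4. In TPM library E was highest and D lowest for these genes, but F was below A and B for BC100530 and Stfa3 and second lowest for Stfa1. The sum was 108.7 CPM in C and 76.7 CPM in D, and lay between 255.7 and 579.7 CPM in the other 4.

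Under the JAK1 inhibitor the genes were close to the limit of detection, with Stfa3 as the exception. The log2 fold change of the sum from AA to systemic JAK1i was -6.72 ± 0.79, a 105.4-fold lower level. BC100530 had 5910 counts over the 6 AA libraries and 15 over the 6 systemic JAK1i libraries, where single libraries held 0 to 6. This is a log2 fold change of -9.08 ± 1.62. The ratio of depth-scaled counts was 556-fold, with a 95% counting interval of 337 to 995. Stfa1 had 677 counts in AA and 5 in systemic JAK1i, with 0 in libraries A, E and F, and a log2 fold change of -7.36 ± 1.64. Without systemic JAK1i library C it was -8.18.

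Stfa3 was still read in every systemic JAK1i library. It had 23, 17, 14, 21, 8 and 12 counts in libraries A to F, or 1.14 to 3.44 CPM with a median of 1.95. Its log2 fold change from AA was -4.92 ± 0.59, a 30.2-fold lower level. Stfa2 had 5 counts, all in library D, and Stfa2l1 had none in the 6 libraries together, which allows up to 0.0688 CPM. All 3 members in the fit lay below AA without overlap, beside 13.8% of genes.

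Set against healthy skin, the systemic JAK1i libraries were at or below the healthy level. The log2 fold change of the sum was -2.57 ± 0.82, and -1.08 without healthy library B. The healthy and treated ranges of the sum overlapped, since healthy library A had 3.27 CPM and treated library B had 3.68 CPM. For Stfa3 the log2 fold change was -1.11 ± 0.65, and -0.22 without healthy B. BC100530 was the member that lay apart, with at most 0.818 CPM in the treated libraries and at least 0.995 CPM in the healthy ones. This narrow gap rests on 6 counts (1.30 TPM) in treated library C and 7 counts (1.33 TPM) in healthy library A. The log2 fold change of BC100530 was -4.64 ± 1.65, and -2.94 without healthy B. Of all genes, 1.14% were lower without overlap in this comparison.

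At 8 weeks after withdrawal Stfa1, Stfa2, Stfa3 and BC100530 each had counts in all 6 libraries, and Stfa2l1 had 3 counts, all in library E. In TPM Stfa2 was 0 in library F, and Stfa2l1 was 0 in library E and 0.510 in library F. The sum was higher than under systemic JAK1i, with a log2 fold change of 4.63 ± 0.80. BC100530 ran from 5.94 to 111.2 CPM with a median of 27.98, Stfa3 from 7.02 to 48.7 CPM with a median of 20.8 and Stfa1 from 1.08 to 18.1 CPM with a median of 3.91. The log2 fold changes were 6.72 ± 1.63, 3.37 ± 0.60 and 5.46 ± 1.66 in turn. On the log2(TPM + 1) scale they were 3.72, 1.70 and 2.30. Stfa2 had 1 to 10 counts in each of the 6 libraries. All 3 members in the fit lay above systemic JAK1i without overlap, beside 8.77% of genes. Library E was the highest of the group for these 3 genes. Without it the log2 fold change of Stfa1 over systemic JAK1i was 4.73 and that of BC100530 was 6.03.

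The 8w off treatment group stood between healthy and AA skin. Against healthy skin the sum had a log2 fold change of 2.06 ± 0.66, and 3.56 without healthy library B. The lowest 8w off treatment library had 14.4 CPM, above all the healthy libraries but B. Against AA the log2 fold change of the sum was -2.09 ± 0.62, and -2.66 without 8w off treatment library E. The 8w off treatment library E, at 180.2 CPM, was above AA libraries C and D, and library A, at 82.1 CPM, was above D. Against healthy skin and against AA 0 of the 3 members in the fit were free of overlap, beside 4.31% of genes that were higher than in healthy skin and 0.597% that were lower than in AA. Without 8w off treatment library E the log2 fold changes over healthy skin were 1.23 for Stfa1 and 1.39 for BC100530, against 1.98 ± 0.77 and 2.08 ± 0.73 with it.

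**Figure D2:**
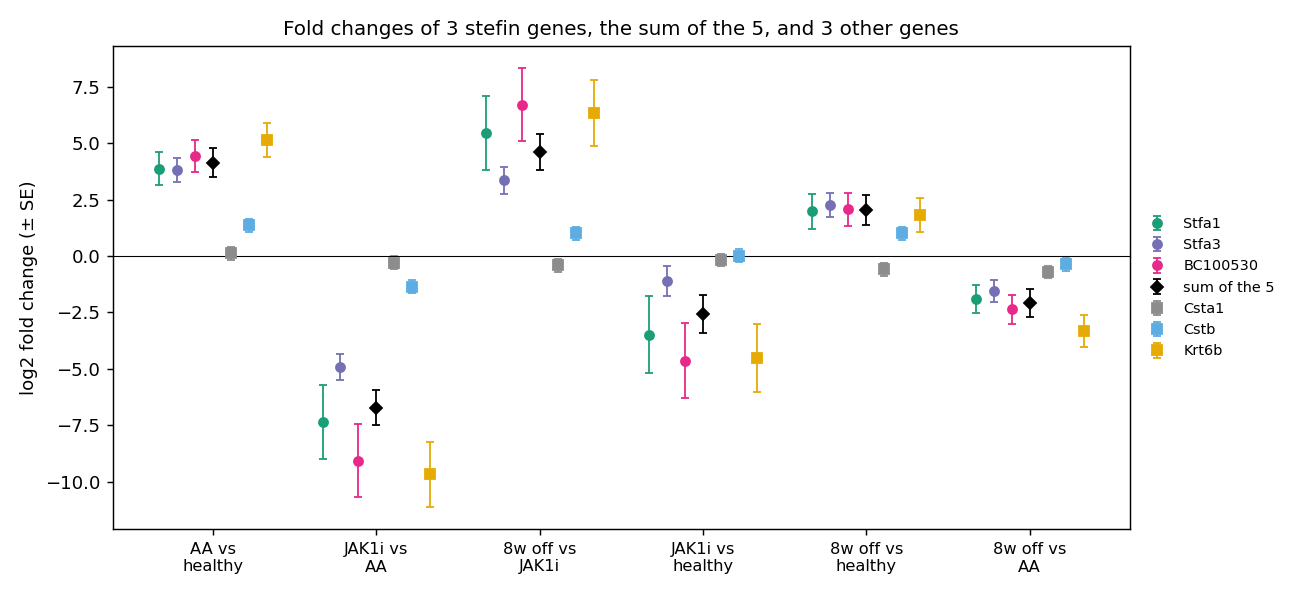
Log2 fold change with its SE in the 6 comparisons for Stfa1, Stfa3, BC100530, the sum of the 5 and, for comparison, Csta1, Cstb and Krt6b. The sum is at 4.15 in AA over healthy skin and at -6.72 in systemic JAK1i over AA, whereas Csta1 stays between -0.71 and 0.12.

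The members took different shares of the summed level, and the shares differed between the groups. Levels of different genes were compared in TPM, which accounts for transcript length. In AA skin BC100530 was highest in 6 of 6 libraries, with 36.2 to 402.2 TPM (median 190.0). Stfa3 followed with 19.5 to 188.7 TPM (median 96.8), Stfa1 with 16.8 to 93.3 TPM (median 46.2) and Stfa2 with 0.929 to 17.8 TPM (median 7.76). BC100530 made up 47.7% to 59.4% of the summed TPM and Stfa3 25.1% to 37.9%. In systemic JAK1i skin Stfa3 was the highest in 6 of 6 libraries, with 3.04 to 8.21 TPM, while BC100530 had 0 to 1.30 TPM. Stfa3 there made up 68.4% to 100.0% of the summed TPM. The shares in counts gave the same order in both groups, with BC100530 at 60.8% to 71.5% in AA and Stfa3 at 60.9% to 100.0% in systemic JAK1i.

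In healthy skin neither gene led in every library, BC100530 being above Stfa3 in 3 of 6. In the 8w off treatment group BC100530 was above Stfa3 in 2 of 6 libraries by TPM, and made up 32.4% to 50.2% of the sum. By counts the order was the other way round, with median shares of 52.6% for BC100530 and 38.9% for Stfa3 and the higher count in BC100530 in all libraries but D. The transcript of Stfa3 shares no 76-base stretch with another protein-coding gene of the array. Among the 3 members in the fit Stfa3 spread least between the groups, from a median of 1.95 CPM to one of 74.7 CPM. BC100530 went from a median of 0.345 CPM to one of 165.7 CPM.

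**Figure D3:**
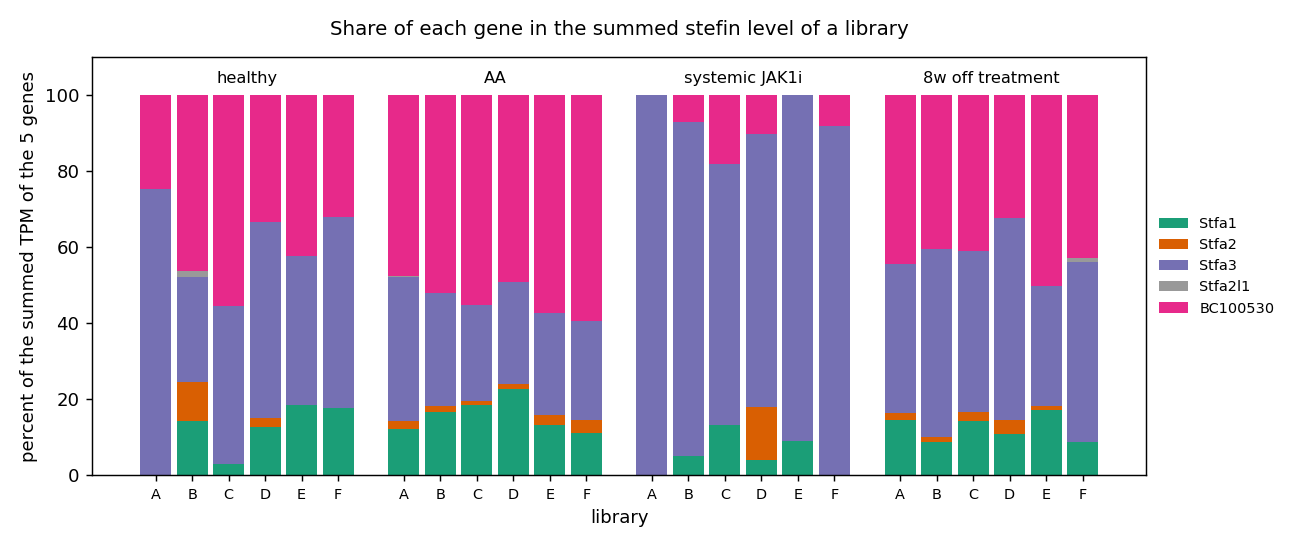
Share of each of the 5 genes in their summed TPM, in percent, 1 stacked bar for each library. BC100530 takes 47.7% to 59.4% in the AA libraries, and Stfa3 takes 68.4% to 100.0% in the systemic JAK1i libraries.

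An annotated antisense gene, Gm15845, overlaps BC100530. Its counts were 4 to 20 in the AA libraries, 0 in the systemic JAK1i libraries, and 0 in the healthy libraries but for 4 in library B. In TPM it lay between 0.592 and 3.83 in all 24 libraries. No source used here gives the strand setting of the counting, so reads of the 2 genes cannot be told apart with certainty. At 76 counts over the AA group against 5910 for BC100530, the antisense gene is small beside it.

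Of the other 5 protein-coding genes of the array, Csta1 was the only one that passed the filter, and it did not share the members' differences between groups. Csta1, a stefin A gene read in every library, ran from 43.6 to 125.4 CPM (median 62.1) in healthy skin and from 55.3 to 123.5 CPM (median 63.2) in AA skin. Its log2 fold change was 0.12 ± 0.28 (adjusted p = 0.76, edgeR quasi-likelihood test), and the AA and healthy ranges overlapped over most of their length. Under systemic JAK1i it ran from 50.5 to 84.6 CPM (edgeR adjusted p = 0.4, log2 fold change over AA -0.30 ± 0.28), and in the 8w off treatment group from 26.2 to 92.2 CPM. Across libraries of the same group it was higher where the sum was higher, with r of 0.776 for log2 CPM once the group means had been taken out, a description with no test. In healthy skin Csta1 was on average above the 5 members together, with 44.6 ± 13.9 TPM (SD, n = 6) against 21.3 ± 28.5 TPM for the sum of the 5 members. The medians were 44.7 and 11.7 TPM. In healthy library B the sum was the higher, at 79.1 TPM against 67.0 TPM for Csta1. In AA skin the sum, at 353.5 ± 219.6 TPM, was far above Csta1 at 39.4 ± 9.78 TPM.

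Gm5416 and BC117090 were read mainly in AA skin. Gm5416 had 7 counts in healthy skin, 70 in AA with 5 to 16 in each library, 0 in systemic JAK1i and 20 in the 8w off treatment group. BC117090, whose coding sequence is 96.2% identical to that of BC100530, had 0, 49, 1 and 8 counts in the same groups. In CPM all 6 AA libraries were above all healthy and all systemic JAK1i libraries for both, but in TPM AA library D was below healthy library B for both. For Gm5416 AA library B, at 2.07 TPM, was also below healthy library B, at 2.43 TPM. For BC117090 AA library D, at 0.239 TPM, was also below systemic JAK1i library A, at 0.367 TPM. Neither gene was tested because of its low counts. Gm5483 had 14 counts and 2010005H15Rik 3 counts over the 24 libraries.

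Other cystatins and the proteases that stefins inhibit also differed between the groups, with smaller fold changes than those of the members. Over all 16248 genes edgeR called 20.9% higher and 19.3% lower in AA than in healthy skin, 22.9% higher and 24.8% lower in systemic JAK1i than in AA, and 19.4% higher and 16.6% lower in 8w off treatment than in systemic JAK1i. Of 16 other cystatins, 4 passed the filter, of which 2 were called higher and 1 lower in AA than in healthy skin. Cstb, which encodes stefin B, the other cytosolic inhibitor of this family, ran from 31.2 to 77.1 CPM (median 40.7) in healthy skin and from 51.9 to 210.2 CPM (median 107.0) in AA. It rose by 1.37 ± 0.29 on the log2 scale (edgeR adjusted p = 0.00077), with some overlap of the groups. It fell under systemic JAK1i by 1.36 ± 0.29 on the log2 scale (edgeR adjusted p = 0.00062) and rose again by 1.002 ± 0.29 after withdrawal (edgeR adjusted p = 0.0098).

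Cst6, which encodes cystatin M/E, a secreted inhibitor of cathepsin L, cathepsin V and legumain in the epidermis, was the other cystatin called higher in AA. It rose by 1.21 ± 0.44 (edgeR adjusted p = 0.034), and AA libraries ranged widely from 312.0 to 4011 CPM. The medians were 574.5 CPM in healthy and 790.7 CPM in AA skin, and the groups overlapped. Cst3, the secreted cystatin C, was lower in AA, with 184.0 to 255.0 CPM against 292.5 to 419.3 CPM in healthy skin (edgeR adjusted p = 3e-05, log2 fold change -0.78 ± 0.12). The groups did not overlap for Cst3. Cst7, an inhibitor of lymphoid and myeloid cells, differed from healthy skin by 0.36 ± 0.33 on the log2 scale in AA (edgeR adjusted p = 0.4).

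The listed proteases, 11 genes for cysteine cathepsins and legumain, all passed the filter. In AA 8 were called higher, 1 lower and 2 in neither direction, with a median log2 fold change of 0.87 against 0.00 over all genes. Without healthy library B 2 were called lower. Ctsb, the one with the most counts, had a median of 353.9 CPM in healthy and 718.4 CPM in AA skin (edgeR adjusted p = 0.0041, log2 fold change 0.87 ± 0.23). Ctsl, a lysosomal endopeptidase active in hair follicle and epidermis, rose by 0.92 ± 0.21 (edgeR adjusted p = 0.0012). Ctsc, which activates the serine proteases of granules in immune cells, rose by 1.83 ± 0.29 (edgeR adjusted p = 4.9e-05), from 53.9 to 114.9 CPM in healthy skin up to 181.2 to 352.2 CPM in AA, without overlap. Ctso was the gene that fell, by 0.53 ± 0.14 on the log2 scale (edgeR adjusted p = 0.0044).

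Under systemic JAK1i 8 of the 11 protease genes were called lower than in AA and 2 higher, with a median log2 fold change of -0.81. Ctsk, a collagen-degrading cathepsin of fibroblasts and bone cells, was among those that rose, by 1.56 ± 0.30 (edgeR adjusted p = 0.00025). In the 8w off treatment group 4 were called higher and 2 lower than under systemic JAK1i. The median log2 fold changes of this list were within 1 log2 unit, whereas those of the 3 stefin A members in the fit were 3.81 to 4.44 in AA over healthy skin.

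The libraries carried the markers of skin. The keratinocyte genes Krt10 and Dsp had group medians of 1855 to 2579 CPM and 5556 to 5980 CPM and were called in none of the 6 comparisons (edgeR adjusted p from 0.26 to 0.86 and from 0.38 to 0.98). Of the 9 keratinocyte markers 2 were called higher and 2 lower in AA. Krt15, a keratin of basal cells and the hair follicle bulge, fell by 2.72 ± 0.29 on the log2 scale (edgeR adjusted p = 9.3e-07) and Krt2, of the upper epidermis, by 4.18 ± 0.78 (edgeR adjusted p = 0.00014). Krt2 overlapped between the groups, at 0.680 to 71.8 CPM in healthy and 0.230 to 3.51 CPM in AA skin. It was also lower than in healthy skin under systemic JAK1i (edgeR adjusted p = 0.0051) and in 8w off treatment (edgeR adjusted p = 0.00018). Skeletal muscle markers summed to between 244.4 and 33380 CPM, and of 8 such genes 2 were called higher in systemic JAK1i than in AA. Of 8 T cell markers 4 were called higher in AA than in healthy skin and 7 lower in systemic JAK1i than in AA, and Cd8a, of cytotoxic T cells, went from a median of 0.461 CPM to 23.1 and to 3.86. Of 10 macrophage and monocyte markers 5 were called higher in AA, or 3 without healthy library B, and 5 lower in systemic JAK1i than in AA. Of 6 mast cell markers 5 were lower in AA and 5 higher in systemic JAK1i. Of the 2 eosinophil markers in the fit, Siglecf was lower in AA. The part of these shifts in the stefin levels was not tested.

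Because stefin A genes are also known from neutrophils, 25 neutrophil genes were examined. In the count table several defining markers, picked out after their values were seen, were at or near 0. Ly6g had 0 counts in all 24 libraries, but its mean in the TPM table was 2.56 for AA, 1.08 for 8w off treatment, 0.591 for systemic JAK1i and 0.525 for healthy skin. Mrgpra2b had 2 counts, Elane 7, Cebpe 7 and Retnlg 10 counts over the 24 libraries. Of the 25 genes 10 passed the filter, of which 5 were called higher and 2 lower in AA than in healthy skin, and the median of their log2 fold changes was 1.34. The summed level of the 25 had medians of 124.1 CPM in healthy, 140.3 CPM in AA, 141.6 CPM in systemic JAK1i and 140.5 CPM in 8w off treatment skin. It ran from 130.1 to 215.1 CPM in AA and from 132.6 to 146.0 CPM under systemic JAK1i, where the stefin sum was 105.4-fold lower than in AA. Of the 10 neutrophil genes in the fit, 6 were called lower and 2 higher in systemic JAK1i than in AA, with a median log2 fold change of -1.47.

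Single genes of the list went in both directions. Padi4, which encodes an enzyme that citrullinates histones, rose in AA by 3.38 ± 0.54 (edgeR adjusted p = 4e-05). Il1r2, a decoy receptor for interleukin 1, fell by 1.24 ± 0.15 on the log2 scale (edgeR adjusted p = 2.5e-06), and Wfdc21 fell by 1.67 ± 0.31 (edgeR adjusted p = 0.0002). Il1r2 and Wfdc21 hold much of the summed level, which limits what the sum says of the rest of the list. S100a8, chosen after its values were seen, ran from 0.496 to 5.80 CPM in healthy and from 1.61 to 16.9 CPM in AA skin (edgeR adjusted p = 0.0068, log2 fold change 1.99 ± 0.57). Cxcr2, a chemokine receptor chosen in the same way, had a log2 fold change of 1.404 ± 0.43 in AA (edgeR adjusted p = 0.012) and of -3.02 ± 0.48 from AA to systemic JAK1i (edgeR adjusted p = 2.5e-05). Pearson's r of log2 CPM with the stefin sum over the 24 libraries was 0.917 for Cxcr2, 0.788 for S100a8 and 0.779 for S100a9. The part of neutrophils in the stefin levels was not tested. Of 10 neutrophil attractants only Cxcl2 passed the filter, with medians of 0 CPM in healthy and 2.09 CPM in AA skin. Cxcl2 was not called between AA and healthy skin (edgeR adjusted p = 0.28, log2 fold change 1.32 ± 0.96). This rests largely on healthy library B, since only 2 healthy libraries held a read and library B had 7.91 CPM. In AA skin Cxcl2 was read in all 6 libraries, at 0.574 to 9.995 CPM. Cxcl2 was called lower under systemic JAK1i than in AA (edgeR adjusted p = 0.0057, log2 fold change -4.65 ± 1.85), and Il23a, the next of this list, had medians of 0.640 and 1.23 CPM in healthy and AA skin.

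Keratinocyte stress genes, which skin switches on in wounds and in psoriasis, differed between the groups in the same directions as the stefin A genes. Of 14 in the fit, 11 were called higher in AA than in healthy skin and 3 in neither direction, and their median log2 fold change was 2.57, against 0.00 over all genes. Under systemic JAK1i 12 were called lower than in AA, and after withdrawal 10 were called higher and 1 lower than under systemic JAK1i. Krt6a, a keratin of activated keratinocytes and of the hair follicle, ran from 107.8 to 235.5 CPM in healthy and from 712.2 to 1704 CPM in AA skin (edgeR adjusted p = 9.4e-07, log2 fold change 2.66 ± 0.28). Krt17 rose by 0.96 ± 0.25 (edgeR adjusted p = 0.0038), and S100a7a, an antimicrobial protein of stressed epidermis, rose by 3.03 ± 0.47 (edgeR adjusted p = 2.4e-05). Within groups these 3 did not go with the stefin sum from library to library, with r of -0.089 for Krt6a, -0.22 for Krt17 and -0.38 for S100a7a once the group means had been taken out.

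Structural genes of the cornified envelope, to which human stefin A is cross-linked, were mixed. Of 20, 7 were called higher and 4 lower in AA, with a median log2 fold change of 0.20. Tgm3, a transglutaminase that cross-links envelope proteins, rose by 2.34 ± 0.31 (edgeR adjusted p = 9.3e-06). Flg2, a filaggrin-like protein, fell by 0.84 ± 0.22 on the log2 scale (edgeR adjusted p = 0.0041), and Scel, which encodes sciellin, fell by 0.82 ± 0.13 (edgeR adjusted p = 3.9e-05). Of 14 other protease inhibitors of skin 5 were higher and 4 lower. Slpi, an inhibitor of neutrophil elastase, rose by 3.02 ± 0.48 (edgeR adjusted p = 3e-05) and Serpina3f by 3.82 ± 0.62 (edgeR adjusted p = 2.7e-05). Serpinb5 was at -0.04 ± 0.11 on the log2 scale in AA (edgeR adjusted p = 0.78), and Spink5, the inhibitor lost in Netherton syndrome, fell by 0.41 ± 0.16 on the log2 scale (edgeR adjusted p = 0.039).

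The genes whose levels were most like the stefin sum were also sought. Likeness was taken as Pearson's r of log2 CPM over the 24 libraries, as a description, since the libraries share 4 group means and their depth. The 10 genes with the highest r, members left out, were Rbp2 (0.971), 2610528A11Rik (0.971), Krt6b (0.964), Sprr1b (0.954), Gsdmc (0.950), Tdh (0.950), ENSMUSG00000081977, which has no symbol (0.945), Sprr2a3 (0.944), Sprr2h (0.943) and Lce1g (0.941). Sprr1b, Sprr2a3 and Sprr2h encode small proline-rich proteins of the cornified envelope, Lce1g a late cornified envelope protein and Rbp2 a retinol-binding protein. When the group means were taken out, r was 0.860 for Rbp2, 0.876 for 2610528A11Rik, 0.811 for Krt6b and 0.786 for Sprr1b. The median r was 0.819 over the 14 stress genes, 0.656 over the 10 neutrophil genes and -0.0026 over all 16248 genes. With the group means taken out these medians were 0.521, 0.480 and -0.012, and that of the 20 cornified envelope genes was 0.581.

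Krt6b, a stress keratin, had larger fold changes than the sum in these comparisons. It ran from 0.514 to 50.8 CPM in healthy skin with library B the highest, and from 97.8 to 942.8 CPM in AA skin. Under systemic JAK1i it ran from 0.270 to 0.993 CPM, and in the 8w off treatment group from 6.66 to 130.3 CPM. Its log2 fold changes were 5.17 ± 0.75 in AA over healthy skin, -9.69 ± 1.46 in systemic JAK1i over AA and 6.35 ± 1.47 after withdrawal. Since Krt6b was picked for its likeness to the sum, these too are a description. Rbp2 moved less, with medians of 3.84, 20.7, 3.45 and 10.6 CPM in the groups healthy, AA, then systemic JAK1i, then 8w off treatment, and its AA libraries lay above all 8w off treatment libraries.

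**Figure D4:**
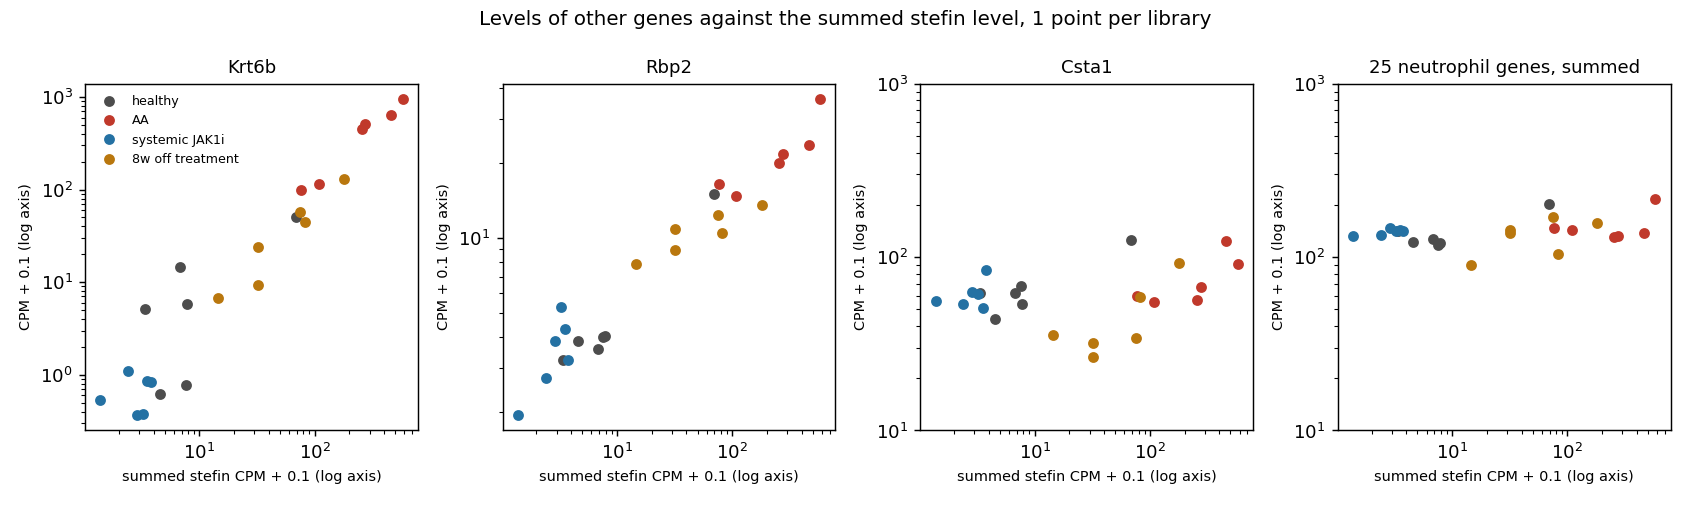
Level of Krt6b, Rbp2, Csta1 and the sum of 25 neutrophil genes against the summed level of the 5 stefin A genes, as CPM + 0.1 on log axes, 1 point for each of 24 libraries coloured by group. Krt6b and Rbp2 rise with the stefin sum over the 24 libraries (r of 0.964 and 0.971). Within the systemic JAK1i libraries r is 0.133 for Krt6b and 0.804 for Rbp2. Csta1 (r of 0.285, and 0.776 within groups) and the neutrophil sum, at 90.4 to 215.1 CPM and largely Il1r2 and Wfdc21, stay within a narrow band.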

How the data were processed

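RNA from dorsal skin was sequenced as paired reads of 76 bases, and per the submitters' processing notes the authors used bcl2fastq, HISAT2 2.0.1 and featureCounts 1.4.4 with the mm10 genome. The authors deposited raw counts per gene and, in a second table, TPM values. For the annotation, the strand setting, the treatment of reads with several matches and the tool behind the TPM, no source used here gives an answer. Samples were grouped by their labels into 4 groups of 6, and 6 further columns in each table matched no sample and were not used. Replicates are separate mice within a group, but the systemic JAK1i and 8w off treatment libraries come from the same mice, so tests between them treat paired samples as independent.

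Gene symbols and coordinates came from GENCODE M21 (GRCm38), in which 37607 of 39017 gene identifiers had a symbol. Genes were kept by the filterByExpr rule of edgeR with a minimum count of 10, which asks for about that count at the median depth in a group's worth of libraries and left 16248 genes. Counts were scaled by TMM and fitted over all 24 libraries with the group as the only term (edgeR 4.0.16 quasi-likelihood test, R 4.3.3), with Benjamini-Hochberg adjustment over the genes kept and a threshold of 0.05. The sum of the 5 members replaced their rows in a second fit. The counting interval of a ratio of counts is exact and covers 95%, and the limit that a count of 0 allows is 3 counts. The steps were tested on simulated data. The members and the gene lists were chosen with earlier results of these data known. Named genes were all detected genes of the array, for each other list the 2 with the highest mean CPM and the 2 with the smallest adjusted p in AA against healthy skin, and the 10 genes most like the sum. Cst7, Ctsk, Ctso, S100a8, S100a9, Cxcr2, the near-absent neutrophil genes and the promoter motifs CCAAT and TTTAAA were named after their values were seen.

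The alternatives were other scalings, filters, a replicate block, fits of only the groups compared, DESeq2 1.42.0, limma 3.58.1 with voom weights or on log2 of the TPM plus 0.1 or 1, and leaving out each library in turn.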

Additional observations from a re-analysis of the deposited data

Results flagged for a closer look

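Of 26 sets of 6 libraries examined, 11 held a library whose gap to its nearest neighbour exceeded Dixon's critical share of the range for 6 samples. That share is set so that chance gives about 1 such set in 20 for normally distributed values. CPM of low genes are skewed and the members were chosen for their levels, so the flags are a description with no test. Healthy library B was the high library in 7 of the 11. Its gap was 0.932 of the range for the sum (69.0 against 7.71 CPM), 0.903 for BC100530 (39.9 against 4.76 CPM), 0.873 for Stfa1 (6.85 against 0.993 CPM), 0.860 for Stfa3 (15.6 against 3.96 CPM), 0.968 for Stfa2 (6.15 against 0.198 CPM) and 1 for Stfa2l1 (0.527 against 0 CPM). It was also high for Csta1, with a gap of 0.697 (125.4 against 68.4 CPM). In the 8w off treatment group library E was high for BC100530, with a gap of 0.659 (111.2 against 41.8 CPM), and held the only counts of Stfa2l1, a gap of 1. In TPM Stfa2l1 was 0 in that library. In the systemic JAK1i group library D held the only counts of Stfa2, a gap of 1, and library B was high for Csta1, with a gap of 0.642 (84.6 against 62.7 CPM). Where only 1 library of a group held a read, a gap of 1 follows of itself. The members and their sum share libraries and in part reads, so these are not separate findings.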

How the results depend on the processing

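The log2 fold change of the stefin sum kept its sign in all 36 alternatives of each of the 6 comparisons. In 8w off treatment against healthy it was 2.06 with only those groups in the fit, 1.84 without healthy library A, 1.91 without healthy C and 1.497 without 8w off treatment E. Leaving out 1 library gave 3.83 to 5.64 in AA against healthy, -6.92 to -6.41 in systemic JAK1i against AA, 4.08 to 4.85 in 8w off treatment against systemic JAK1i, -2.80 to -1.08 in systemic JAK1i against healthy, 1.497 to 3.56 in 8w off treatment against healthy and -2.66 to -1.77 in 8w off treatment against AA.

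TPM shifted the median of all genes between groups (log2, 0.65 in systemic JAK1i over AA and -1.16 in 8w off treatment over systemic JAK1i). With limma on TPM plus 0.1, plus 1 and plus 0.1 without a filter, the sum gave -5.62, -5.41 and -5.62 in systemic JAK1i against AA, 2.84, 2.66 and 2.84 in 8w off treatment against systemic JAK1i and -1.21, -1.11 and -1.21 in systemic JAK1i against healthy, where voom gave -1.29. Centring each library on its median TPM, chosen after seeing the data, gave -1.56 there. Over the settings that kept all libraries, Stfa1, Stfa3 and BC100530 ranged from 2.30 to 5.77, 1.70 to 3.38 and 3.72 to 6.85 in 8w off treatment against systemic JAK1i, and from -7.82 to -5.13, -4.92 to -3.82 and -9.30 to -6.78 in systemic JAK1i against AA.

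Counts of genes called, either direction, were 6533, 7755, 5841, 170, 5311 and 222 in the order above. The same TPM settings gave 2628, 2886 and 2459 in AA against healthy (641 higher and 1987 lower with plus 0.1, against 3394 and 3139), 14142, 14181 and 18597 in 8w off treatment against systemic JAK1i, and 11669, 11492 and 12593 in 8w off treatment against healthy. In systemic JAK1i against healthy the counts were 105 without a filter, 104 with the replicate block, 286 with only those groups, 617 with DESeq2, 1978 with voom, 455 with TPM plus 1, 66 with unfiltered TPM, and 49 to 704 without 1 library (healthy A and healthy F). In 8w off treatment against AA they were 111, 18 with only those groups, 613 with DESeq2, 1074, 978 and 384 with TPM, and 68 to 493 without 1 library (AA B and 8w off treatment B). The cause of these differences was not tested.

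With the replicate block the sum gave 4.39, -6.48, 4.41, -2.09, 2.32 and -2.07. Over all pairs of groups, same-letter deviations from the group means correlated at -0.237 to 0.414, and 5 of 36 matched their own letter best. Only systemic JAK1i and 8w off treatment libraries can share mice, so the other pairs of groups cannot bear on pairing. Between those groups the correlations were -0.217 to 0.383, and letter E alone matched its own letter best. Treatment state also differed between them, so whether the letters pair these libraries cannot be decided from this.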
